A study of Mus musculus with 3 samples.

Results

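The genes described here load peptides onto major histocompatibility complex (MHC) class I molecules. They were Tap1, Tap2, Tapbp, Psmb8, Psmb9, Psmb10, B2m, H2-K1, H2-D1 and Nlrc5, 10 of the 36609 gene names on the array, and were chosen by name. Every probe that the array files assign to one of those names was kept, which gave 17 of 56599 probes. Cells of the spleen from male MRL/MpJ mice aged 6 months were cultured for 3 h with lpr urine (from MRL/MpJ-Faslpr/lpr mice), MRL/MpJ urine or PBS. MRL/MpJ-Faslpr/lpr mice carry a loss of Fas, a receptor for cell death, and develop lupus-like disease. Only the urine donors differed in Fas: the cultured cells were MRL/MpJ cells in all 3 conditions. Urine was pooled from male donors aged 6 months (n = 6 in the labels) and filtered, and the cells, freed of red cells by lysis, were not sorted. The labels speak of a spleen in one place and of spleens in another, and do not give the volume of urine added.

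There was 1 one-colour array per condition, so no difference between conditions has a replicate check and no p-value can be given. In a mixed culture, fewer cells of a type and less RNA per cell cannot be told apart. The 75th percentile of the processed signal, in arbitrary intensity units, was 75.7 with lpr urine, 86.6 with MRL/MpJ urine and 158 with PBS. The 8 spike-in probes above background, by contrast, differed from PBS by only -0.06 with lpr urine and 0.05 with MRL/MpJ urine (log2). Each log2 difference below was taken after dividing every array by its own 75th percentile. Scaling by the spike-ins instead puts the median of all probes at -0.92 (lpr urine against PBS) and -0.85 (MRL/MpJ urine against PBS), where it was 0.08 and 0.06. A value is therefore relative to the bulk of the same array. The only measured error is the spread of spots repeated within an array, as the SD of a log2 difference: 0.05 for bright probes (log2 signal of 11 and above), 0.09 and 0.12 for the next 2 signal ranges and 0.28 for the dimmest. Each member probe had 1 spot, and this SD does not hold the spread between cultures.

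Class I molecules show fragments of the cell's own proteins to CD8 T cells. The immunoproteasome, made when Psmb8, Psmb9 and Psmb10 replace the constitutive catalytic subunits Psmb5, Psmb6 and Psmb7, cuts those proteins. The transporter formed by Tap1 and Tap2 then carries the peptides into the endoplasmic reticulum, where tapasin (Tapbp) bridges it to the heavy chain, H2-K1 or H2-D1, paired with the light chain beta 2-microglobulin (B2m). Interferon-gamma induces these genes in many cell types, and Nlrc5 is the transactivator of class I genes. Lymphocytes carry class I in the resting state, so spleen cells express the whole set before any stimulus. MRL/MpJ mice carry the k haplotype of the MHC, whereas the mouse reference genome carries the b haplotype. How that affects binding to the H2-K1 and H2-D1 probes was not tested.

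All 17 probes were well above background on all 3 arrays, and none was saturated. On the processed signal before scaling, 15 of 17 probes had their lowest value with lpr urine, a higher one with MRL/MpJ urine and the highest with PBS. The whole array ran in the same order, with median signals of 8.13, 9.16 and 12.9. The share of all probes in that order is not given. Relative to its array, the set stayed close to PBS. With lpr urine, 1 probe was at least 2-fold higher than with PBS and 1 at least 2-fold lower, where 16.9% and 13.2% of all probes measured on both arrays were. With MRL/MpJ urine the counts were also 1 higher and 1 lower, against 15.5% and 12.4% of all probes. The median difference of the 17 probes was 0.00 with lpr urine and -0.02 with MRL/MpJ urine, beside 0.08 and 0.06 over all probes. When each gene was read from its best measured probe, 0 of 10 genes were 2-fold higher or lower in either comparison, where 18.5% and 12.0% of all genes were with lpr urine and 16.9% and 11.1% with MRL/MpJ urine. At 1.5-fold, 2 probes were higher and 3 lower in each comparison, where 30.6% and 24.4% of all probes were with lpr urine and 28.5% and 24.1% with MRL/MpJ urine. Scaled by the spike-ins, 0 probes were higher and 8 lower with lpr urine, where 4.95% and 46.8% of all probes were. In the same way 1 was higher and 7 lower with MRL/MpJ urine, where 4.94% and 43.6% of all probes were.

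**Figure D1:**
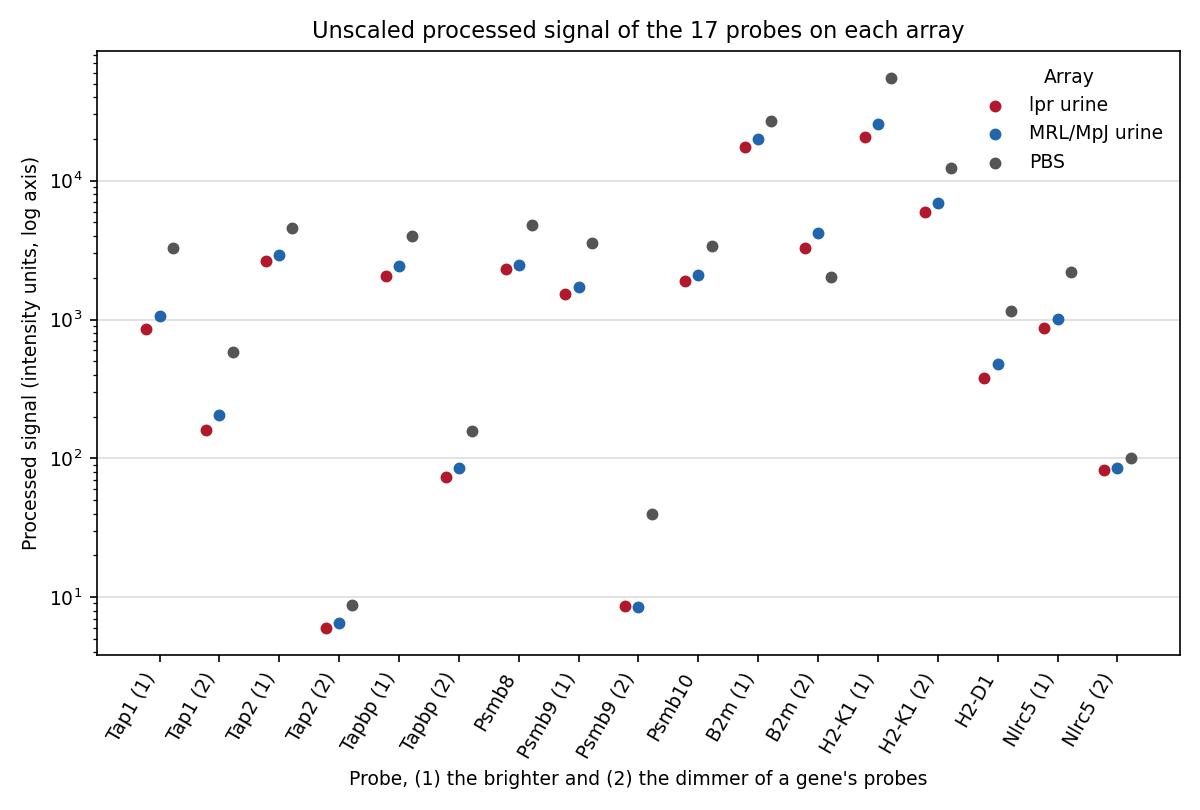
Processed signal (arbitrary intensity units, log axis) of the 17 probes on the lpr urine, MRL/MpJ urine and PBS arrays, 1 array per condition and before scaling; the number after a gene name marks its first or second probe. In 16 of 17 probes both urine arrays lie below the PBS array, and the second B2m probe is the exception. The median signal over all probes was also lower with urine (8.13 with lpr urine and 9.16 with MRL/MpJ urine, against 12.9 with PBS).

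The 2 chains of the peptide transporter read unequally, with Tap1 lower than with PBS and Tap2 not, relative to the array. Tap1 has 2 probes, both on the plus strand of chromosome 17 in the mm9 build: A_66_P125929 at chr17:34334022-34334081 and A_51_P100327 at chr17:34330854-34330913. They lie in the same transcript, and are shown because they read apart from the probes of Tap2, their partner gene.
Tap1 A_66_P125929: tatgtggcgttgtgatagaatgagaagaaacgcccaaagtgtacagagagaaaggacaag
Tap1 A_51_P100327: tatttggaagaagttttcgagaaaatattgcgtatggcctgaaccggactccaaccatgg
The first had a processed signal of 859 with lpr urine and 1061 with MRL/MpJ urine, against 3269 with PBS. The second had 159 with lpr urine and 206 with MRL/MpJ urine, against 581 with PBS. Both probes were lower with either urine. Relative to the array, the first probe differed from PBS by -0.87 (1.83-fold lower, repeated-spot SD 0.09) with lpr urine and -0.76 (1.69-fold lower, SD 0.09) with MRL/MpJ urine. The second differed by -0.81 with lpr urine and -0.63 with MRL/MpJ urine (SD 0.09 each). The probes lie 3168 bases apart in the genome and differed from each other by 0.06 with lpr urine and 0.13 with MRL/MpJ urine. Neither reached 2-fold on this scale, and both were below 0 under all 6 scalings and background corrections tried.

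Tap2, the other chain of the transporter, was not lower relative to the array. Its probe A_55_P2017645 (chr17:34353116-34353175, plus strand) had 2625 with lpr urine and 2930 with MRL/MpJ urine, against 4597 with PBS, and its scaled difference from PBS was 0.25 with lpr urine and 0.21 with MRL/MpJ urine (SD 0.05). That sign is not stable to scaling, since it was above 0 in 3 of 6 settings and below 0 in 3. The other Tap2 probe, A_51_P240654, read 6.03 with lpr urine and 6.55 with MRL/MpJ urine, against 8.83 with PBS. The faintest signals called above background on these arrays were 4.43 to 4.47. Its differences of 0.51 and 0.43 come with a repeated-spot SD of 0.28. The difference of Tap1 minus that of Tap2 does not depend on a common scaling factor: it was -1.12 with lpr urine and -0.97 with MRL/MpJ urine (SD 0.11). It remained at -1.01 and -0.89 under quantile normalization and at -1.04 and -0.93 after normexp background correction. The 2 transporter genes, which sit in the same stretch of the class II region, therefore had unequal differences from PBS on these arrays.

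Tapbp encodes tapasin, which holds the empty heavy chain at the transporter. Its probe A_51_P304500 (chr17:34066022-34066081) had 2053 with lpr urine and 2448 with MRL/MpJ urine, against 3966 with PBS. The second, A_52_P684830 (chr17:34063096-34063155), had 73.5 with lpr urine and 85.1 with MRL/MpJ urine, against 157 with PBS. Scaled differences from PBS were 0.11 and -0.04 with lpr urine and 0.17 and -0.02 with MRL/MpJ urine. Tapbp thus stayed near the median of all probes, with no sign that held under every scaling.

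By their RefSeq probes, the 3 inducible proteasome subunits stayed near PBS relative to the array, while 2 of the 3 constitutive subunits they replace read lower. Psmb8 (probe A_51_P345367, chr17:34337771-34337830) had 2314 with lpr urine and 2476 with MRL/MpJ urine, against 4758 with PBS, which gave scaled differences of 0.02 and -0.08. Psmb10, which lies outside the MHC on chromosome 8 (A_52_P570266, chr8:108459677-108459736, minus strand), had 1900 with lpr urine and 2076 with MRL/MpJ urine, against 3408 with PBS. Its scaled differences were 0.21 with lpr urine and 0.15 with MRL/MpJ urine. The signs of both genes changed with the scaling.

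Psmb9 has 2 probes that disagree. A_51_P369803 (chr17:34319174-34319233, minus strand) targets the RefSeq transcript, and A_55_P2038983 (chr17:34322762-34322821, minus strand), 3588 bases away, targets an Ensembl transcript that the array design also names Psmb9.
Psmb9 A_51_P369803: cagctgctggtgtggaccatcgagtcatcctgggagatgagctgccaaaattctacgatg
Psmb9 A_55_P2038983: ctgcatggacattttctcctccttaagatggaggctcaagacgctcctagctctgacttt
The first had 1528 with lpr urine and 1709 with MRL/MpJ urine, against 3533 with PBS, and scaled differences of -0.15 and -0.18 (SD 0.05). The second had 8.66 with lpr urine and 8.42 with MRL/MpJ urine, against 39.4 with PBS. Its scaled differences of -1.13 with lpr urine (2.19-fold lower) and -1.36 with MRL/MpJ urine (2.57-fold lower) are the single 2-fold lower reading of the set in each comparison. That reading is dim on both urine arrays, where the repeated-spot SD is 0.28. After normexp background correction, which adds an offset of 50 to every signal, it was 0.12 with lpr urine and 0.02 with MRL/MpJ urine. That offset is larger than the probe's processed signal on each array.

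The constitutive subunits were read in the same way. Psmb5 had 289 with lpr urine and 313 with MRL/MpJ urine, against 1280 with PBS, and differed from PBS by -1.09 and -1.17. Psmb6 had 1325 with lpr urine and 1658 with MRL/MpJ urine, against 4769 with PBS, and differed by -0.79 and -0.66. Psmb7 had 251 with lpr urine and 265 with MRL/MpJ urine, against 534 with PBS, and differed by -0.03 and -0.15. Each inducible subunit had the less negative difference of its pair. Psmb8 exceeded Psmb5 by 1.10 with lpr urine and 1.09 with MRL/MpJ urine (SD 0.11). Psmb9, by its RefSeq probe, exceeded Psmb6 by 0.64 and 0.48 (SD 0.07). Psmb10 exceeded Psmb7 by 0.25 and 0.29 (SD 0.11), which quantile normalization brought to 0.07 and 0.14. These compare differences from PBS, not amounts of one subunit with amounts of another.

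The light chain B2m, which every classical class I molecule needs to reach the cell surface, was read by 2 probes with unlike results. It has a probe in its RefSeq mRNA, A_51_P129012 (chr2:121978401-121978460), and a probe designed on a cDNA clone without a classified product, A_52_P105594 (chr2:121974599-121974658). Both are on the plus strand, 3802 bases apart. They are printed because they gave the widest gap between probes of 1 gene in the set.
B2m A_51_P129012: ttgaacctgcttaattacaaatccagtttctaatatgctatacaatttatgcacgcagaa
B2m A_52_P105594: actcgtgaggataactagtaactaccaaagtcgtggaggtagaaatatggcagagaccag
The mRNA probe had 17424 with lpr urine and 20024 with MRL/MpJ urine, against 27098 with PBS. Relative to the array it was 0.42 above PBS with lpr urine and 0.43 above with MRL/MpJ urine (SD 0.05), below 0 with spike-in scaling (-0.58 and -0.48) and with quantile normalization (-0.27 and -0.25). The cDNA clone's probe had 3293 with lpr urine and 4203 with MRL/MpJ urine, against 2009 with PBS. It is the one member probe with more signal on both urine arrays before any scaling. Its scaled difference was 1.77 with lpr urine (3.41-fold higher) and 1.93 with MRL/MpJ urine (3.80-fold higher), the single 2-fold higher reading in each comparison. It stayed above 0 in all 6 settings, with spike-in values of 0.77 and 1.02. Whether that clone is part of the B2m transcript was not determined from the sources used here, so its reading is not taken as the level of B2m mRNA.

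H2-K1 encodes the classical K heavy chain. Its probes are A_51_P198434 (chr17:34133055-34133114, minus strand) and A_55_P2049647 (chr17:34133984-34134043, minus strand). In the second, capitals mark a run of 29 bases that also occurs in array probes named H2-L and H2-T23, other class I genes.
H2-K1 A_51_P198434: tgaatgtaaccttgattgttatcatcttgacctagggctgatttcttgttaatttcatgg
H2-K1 A_55_P2049647: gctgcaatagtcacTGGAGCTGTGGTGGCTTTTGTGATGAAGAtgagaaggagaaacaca
H2-D1 A_65_P19395: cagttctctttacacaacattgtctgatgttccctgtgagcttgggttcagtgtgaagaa
The first H2-K1 probe had 20705 with lpr urine and 25542 with MRL/MpJ urine, against 54750 with PBS, and scaled differences of -0.35 and -0.24 (SD 0.05). The second had 5942 with lpr urine and 6934 with MRL/MpJ urine, against 12334 with PBS, and scaled differences of 0.00 and 0.03. The first probe was below 0 in all 6 settings. Whether the second reads H2-K1 alone was not tested, and 41 of 60 bases match the H2-L probe and 39 of 54 aligned bases match the H2-T23 probe. Those genes are named for this overlap, after their values were seen: the H2-L probe was at 0.07 with lpr urine and 0.08 with MRL/MpJ urine, and the H2-T23 probe at 0.20 and 0.21.

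H2-D1, the classical D heavy chain, has 1 probe, A_65_P19395 (chr17:35403886-35403945, plus strand), printed above. It had 380 with lpr urine and 476 with MRL/MpJ urine, against 1152 with PBS. Its scaled difference was -0.54 with lpr urine (1.46-fold lower) and -0.41 with MRL/MpJ urine (1.33-fold lower, SD 0.09 each), below 0 in all 6 settings. The H2-L probe just named maps 695 bases before it on the same build, so that neighbouring class I probes of the D region read apart. Whether these probes lie in the same gene was not tested. Another H2-L probe read -0.58 with either urine. B2m, by its mRNA probe, exceeded H2-K1, by its first probe, by 0.77 with lpr urine and 0.66 with MRL/MpJ urine (SD 0.07), a difference of differences that held at 0.83 and 0.68 under quantile normalization. By these probes, light and heavy chain readings moved apart with either urine, though both differences subtract the same PBS array. The second H2-K1 probe lay nearer to B2m, at 0.00 with lpr urine and 0.03 with MRL/MpJ urine, beside 0.42 and 0.43. Under quantile normalization it was at -0.46 and -0.40, beside -0.27 and -0.25 for B2m.

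Nlrc5 drives class I promoters and is itself induced by interferon-gamma. Its probe near the end of the transcript, A_55_P2016034 (chr8:97051105-97051164), had 865 with lpr urine and 1006 with MRL/MpJ urine, against 2197 with PBS. Its scaled differences were -0.29 and -0.26 (SD 0.09). The probe nearer the transcript's start, A_66_P113043, covers 60 bases of transcript over 147 bases of genome (chr8:97030478-97030624). It had 82.6 with lpr urine and 85.4 with MRL/MpJ urine, against 101 with PBS, and scaled differences of 0.77 and 0.62 (SD 0.12). The probes lie 20627 bases apart and differ by 1.06 with lpr urine and 0.88 with MRL/MpJ urine, so no single value for Nlrc5 can be given. Ciita, the matching transactivator of class II genes, had 1644 with lpr urine and 2127 with MRL/MpJ urine, against 1135 with PBS, and differences of 1.59 and 1.77. Of 2 further Ciita probes above background on all arrays, A_55_P2741198 read 1.26 with lpr urine and 1.64 with MRL/MpJ urine, while A_55_P2035003 read -0.24 and 0.34. The sign for Ciita with lpr urine therefore depends on the probe, as that for Nlrc5 does with either urine, and no difference between the genes is given.

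**Figure D2:**
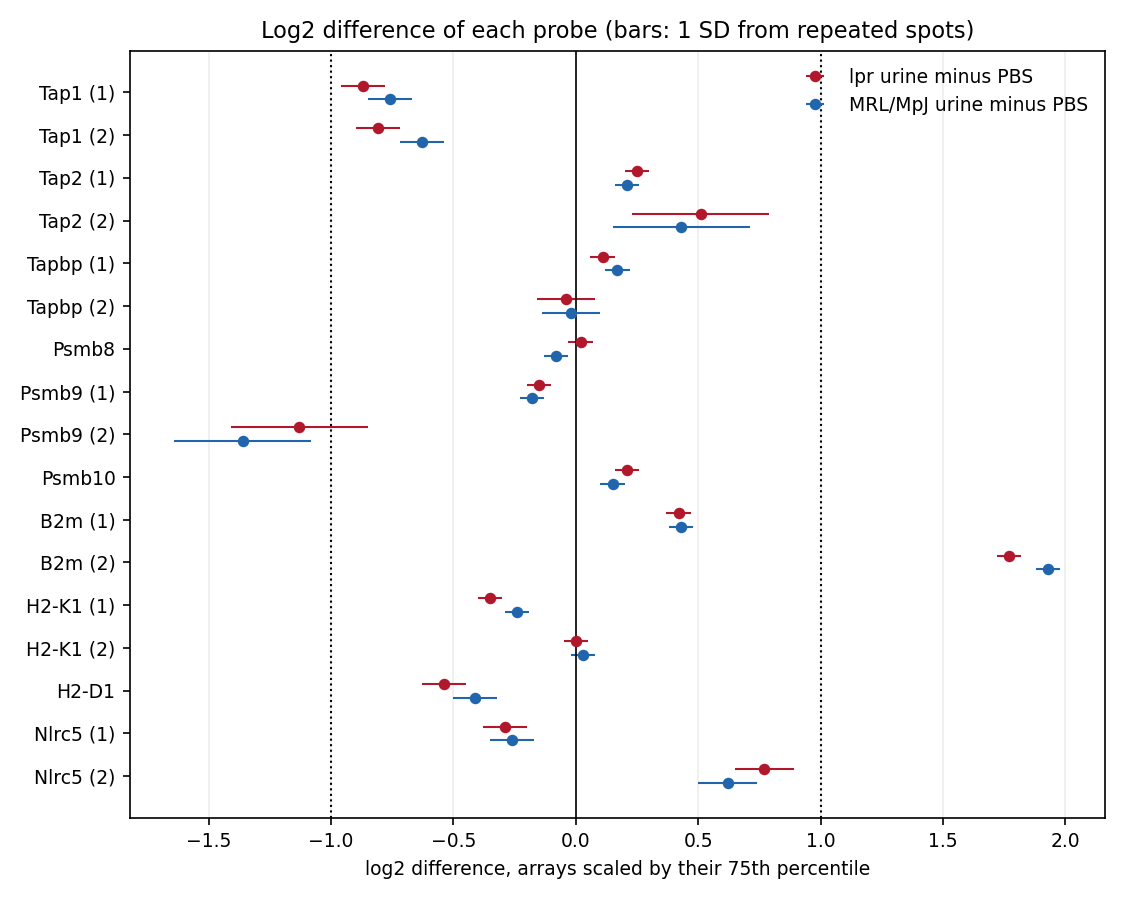
Log2 difference from PBS of each member probe after scaling by the 75th percentile, for lpr urine and MRL/MpJ urine (1 array each), with bars of 1 SD from spots repeated within an array; vertical lines mark 0 and 2-fold. The second B2m probe (1.77 and 1.93) and the second Psmb9 probe (-1.13 and -1.36) lie beyond 2-fold, and the 2 Tap1 probes lie together between -0.87 and -0.63.

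The lpr urine and MRL/MpJ urine arrays hardly differed, for these genes as for the array as a whole. Over all probes measured on both arrays, the quartiles of the difference were -0.11 and 0.13. Of 17 probes, 0 were 2-fold higher and 0 were 2-fold lower with lpr urine than with MRL/MpJ urine, where 0.294% and 0.0719% of all probes were. At 1.5-fold the counts were also 0 and 0, where 2.21% and 1.27% of all probes were. By gene they were 0 and 0 of 10, where 0.340% and 0.0600% of all genes were. Differences ran from -0.18 to 0.23 with a median of -0.02, beside 0.01 over all probes. The highest belonged to the dim second Psmb9 probe (0.23, SD 0.28), and the lowest to the second Tap1 probe (-0.18, SD 0.12). The first Tap1 probe was at -0.11 (SD 0.09), H2-D1 at -0.13 (SD 0.09), the first H2-K1 probe at -0.11 (SD 0.05) and the B2m cDNA probe at -0.16 (SD 0.05). Whether these sizes exceed the difference between 2 cultures with the same urine cannot be told from 1 array each.

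**Figure D3:**
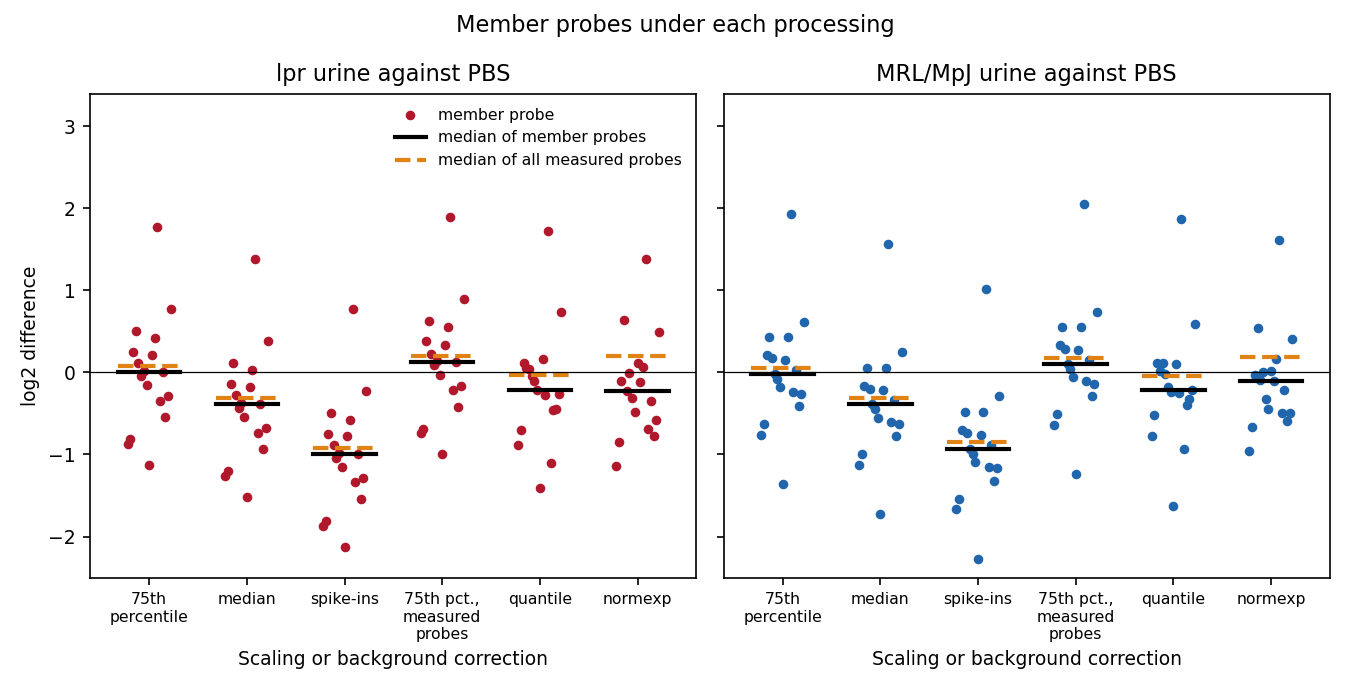
Log2 difference of each member probe under 6 settings (scaling by the 75th percentile, the median, the spike-ins, the 75th percentile of measured probes, quantile normalization and normexp background correction), for lpr urine and MRL/MpJ urine against PBS. In each comparison 6 probes were below 0 in all 6 settings and 1, the B2m cDNA probe, was above 0 in all 6, while the others changed sign with the setting.

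The 6 probes below 0 in all settings, with either urine, were both Tap1 probes, the RefSeq probe of Psmb9, the first H2-K1 probe, the H2-D1 probe and the Nlrc5 probe near the end of its transcript. Spike-in scaling put 16 of 17 probes below 0 in each urine comparison. The median of all probes was then -0.92 with lpr urine and -0.85 with MRL/MpJ urine. The share of all probes that kept 1 sign in all 6 settings is not given. Normexp set the members furthest from the rest of the array, with medians of -0.23 (lpr urine) and -0.10 (MRL/MpJ urine) over the 17 probes, beside 0.20 and 0.19 over all probes.

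Promoter sequence was available for 8 of the 10 genes, as RefSeq windows of 300 bases (250 before the annotated start and 50 after it, build GRCm38.p6); Tap2 and Nlrc5 had no entry. Windows are shown for genes whose readings were set against each other above: H2-K1 beside H2-D1, B2m as their light chain, and Tap1, whose window shares 275 bases with that of Psmb9 on the opposite strand. Capitals mark matches, on either strand, to 6 motifs chosen after the sequences were seen. They were GAAANNGAA (core of the interferon-stimulated response element), TTTCACTTC (the class I interferon element), TTCNNNGAA (gamma-activated site), GGGATTCCC (core of the kappa B site of enhancer A), TGACG (the core of a cAMP response element) and CCAAT. No matches overlapped each other.
H2-K1 (chr17:34000298-34000597, minus strand): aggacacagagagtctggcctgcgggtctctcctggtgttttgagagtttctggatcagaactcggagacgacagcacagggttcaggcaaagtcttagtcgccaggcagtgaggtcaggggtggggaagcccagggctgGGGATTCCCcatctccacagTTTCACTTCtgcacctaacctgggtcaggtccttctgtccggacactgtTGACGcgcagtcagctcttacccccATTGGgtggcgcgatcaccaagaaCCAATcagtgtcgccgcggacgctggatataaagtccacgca
H2-D1 (chr17:35262844-35263143, plus strand): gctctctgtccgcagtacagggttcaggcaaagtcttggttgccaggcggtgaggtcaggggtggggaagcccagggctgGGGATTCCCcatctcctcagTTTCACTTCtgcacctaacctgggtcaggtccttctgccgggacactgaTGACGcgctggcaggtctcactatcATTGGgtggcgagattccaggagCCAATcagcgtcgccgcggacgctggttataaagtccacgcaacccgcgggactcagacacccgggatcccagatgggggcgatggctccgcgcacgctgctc
B2m (chr2:122147437-122147736, plus strand): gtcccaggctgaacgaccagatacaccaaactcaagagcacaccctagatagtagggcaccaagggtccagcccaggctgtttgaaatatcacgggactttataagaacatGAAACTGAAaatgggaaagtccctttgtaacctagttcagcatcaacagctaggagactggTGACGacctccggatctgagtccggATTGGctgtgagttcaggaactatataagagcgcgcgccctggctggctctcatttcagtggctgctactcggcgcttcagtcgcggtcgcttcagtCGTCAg
Tap1 (chr17:34187306-34187605, plus strand): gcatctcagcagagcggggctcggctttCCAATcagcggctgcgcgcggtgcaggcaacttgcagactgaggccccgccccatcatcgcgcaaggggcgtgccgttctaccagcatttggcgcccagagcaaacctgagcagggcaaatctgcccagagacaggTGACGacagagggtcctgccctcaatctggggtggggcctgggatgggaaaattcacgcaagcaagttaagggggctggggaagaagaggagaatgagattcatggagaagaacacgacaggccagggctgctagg
H2-K1 and H2-D1 both held GGGATTCCC followed by TTTCACTTC. RefSeq gives H2-K1 a pair of window entries with different starts. These motifs began at positions -110 and -90 relative to the start of the printed H2-K1 entry, at -124 and -104 relative to that of the other, and at -170 and -150 in H2-D1. Of 32851 RefSeq promoter windows of this length, 0.353% held the first and 0.505% the second. B2m held GAAACTGAA, a match to the response element's core, found in 8.56% of windows, at position -139. TGACG was present in Tap1, Psmb9, B2m, H2-K1 and H2-D1, and in 20.8% of all windows, and CCAAT in those 5 and Tapbp, and in 37.4% of all windows. Psmb8 held TTCCCAGAA, a match to the gamma-activated site found in 8.30% of windows. A match describes letters in a window, and no binding was measured.

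The starts of Tap1 and Psmb9 lie 226 bases apart and point away from each other, so that most of the printed Tap1 window is also in the Psmb9 window. Their readings nonetheless differed: the difference for Tap1 minus that for Psmb9, by its RefSeq probe, was -0.72 with lpr urine and -0.58 with MRL/MpJ urine (SD 0.11), or -0.68 and -0.54 under quantile normalization. Along the class II region the members sit between genes of the other MHC pathway. H2-Oa, H2-DMa and H2-DMb1, which encode subunits of the class II loading helpers, lie on one side of the Psmb9, Tap1, Psmb8 and Tap2 block, and the classical class II genes on the other. Of 21 measured neighbours of the members, 5 were 2-fold higher and 3 lower with each urine. Of all genes, 18.5% were higher and 12.0% lower with lpr urine, and 16.9% and 11.1% with MRL/MpJ urine. Brd2 aside, the higher neighbours were class II genes, which are counted again in the class II list below. B3galt4, a galactosyltransferase gene near Tapbp, had 66.0 with lpr urine and 80.0 with MRL/MpJ urine, against 462 with PBS (-1.75 and -1.67).

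**Figure D4:**
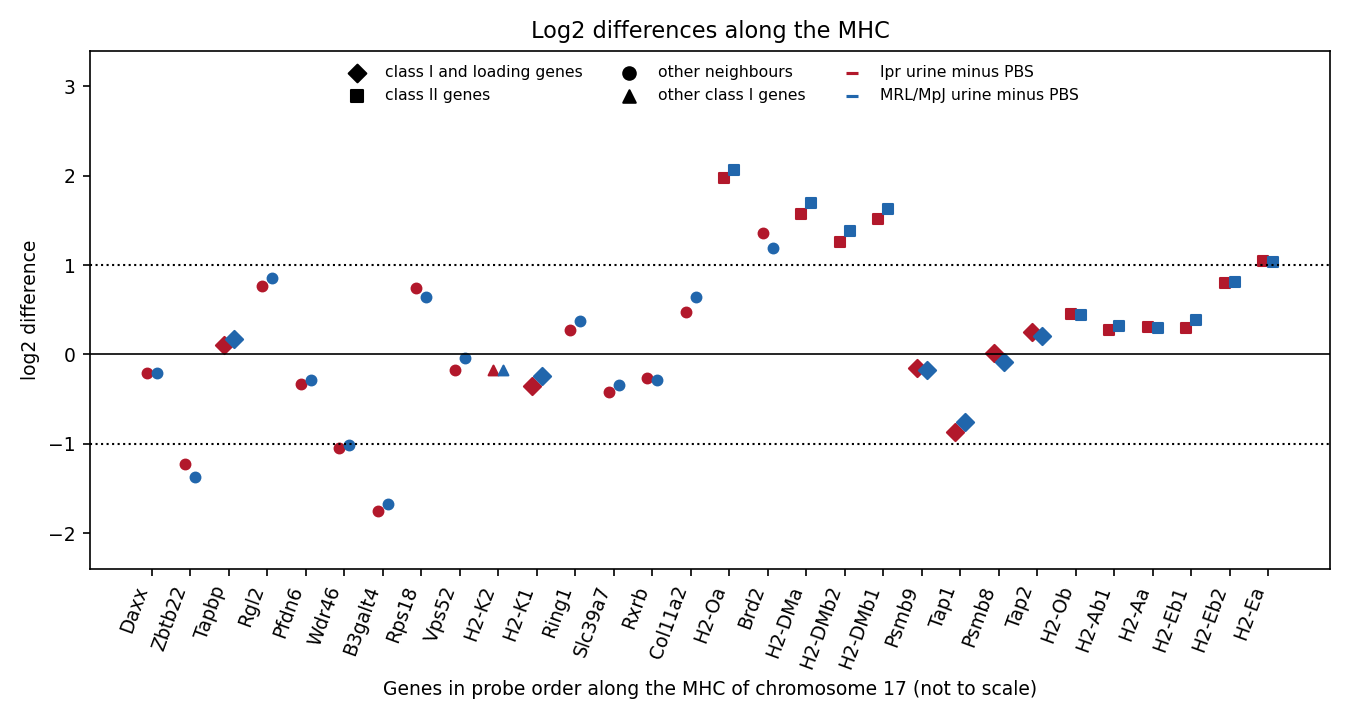
Log2 difference from PBS with lpr urine and MRL/MpJ urine for genes of the MHC region on chromosome 17, in genomic order (1 array per condition, horizontal axis is rank and not distance). H2-Oa to H2-DMb1 lie between 1.19 and 2.06 (Brd2 included), and the Psmb9 to Tap2 block lies between -0.87 and 0.25.

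Class II genes read differently from class I loading genes on the same arrays. Over all genes measured, the median difference from PBS was 0.15 with lpr urine and 0.13 with MRL/MpJ urine, and over the 10 class I members, 1 probe each, it was -0.07 and -0.13. Of all genes, 18.5% were 2-fold higher and 12.0% lower with lpr urine, and 16.9% and 11.1% with MRL/MpJ urine. The list counts here and below stand beside those shares. Of 12 measured class II genes, 6 were 2-fold higher and 0 lower with each urine, and all 12 were above 0 after 75th percentile scaling, with a median of 0.92 in both comparisons; with spike-in scaling the medians were -0.07 with lpr urine and 0.01 with MRL/MpJ urine. H2-Oa had 1657 with lpr urine and 2007 with MRL/MpJ urine, against 875 with PBS (differences of 1.98 and 2.06). Under spike-in scaling the 10 class I members had medians of -1.07 and -1.04. Other class I and class I-like genes included 4 that were 2-fold higher and 0 lower of 21 measured, with medians of 0.18 (lpr urine) and 0.20 (MRL/MpJ urine) that were below 0 with median, spike-in and normexp settings. The 4 were not classical heavy chains. H2-T24, a T-region class I gene, had 89.9 with lpr urine and 122 with MRL/MpJ urine, against 48.3 with PBS (1.95 and 2.19). Cd1d1, which presents lipids to NKT cells, differed by 1.62 and 1.59, Cd1d2 by 1.05 and 1.31, and Fcgrt, the neonatal Fc receptor that also pairs with B2m, by 1.41 and 1.25. With spike-in scaling these were 0.63 and 0.68 for Cd1d1, 0.05 and 0.40 for Cd1d2, and 0.41 and 0.35 for Fcgrt. On that scale 0 of the 21 were 2-fold higher with lpr urine and 1 with MRL/MpJ urine, and 5 were lower with each. Of all probes, 4.95% and 4.94% were then higher, and 46.8% and 43.6% lower.

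Among 13 other loading and peptide-trimming genes, 0 were 2-fold higher and 1 was lower with each urine, and the medians were -0.35 with lpr urine and -0.34 with MRL/MpJ urine, below 0 in all 6 settings. The lower gene was Lap3, a leucine aminopeptidase, with 181 with lpr urine and 211 with MRL/MpJ urine, against 773 with PBS (-1.04 and -1.01). Erap1, which trims peptides inside the endoplasmic reticulum, differed by -0.85 and -0.83 at its best measured probe. Its 2 other probes were below background on at least 1 urine array. Of 8 measured activators and assembly factors of the proteasome, 1 was higher and 0 lower in each comparison. That gene, the assembly chaperone Psmg3, has a second probe on the opposite side (1.91 against -1.18 with lpr urine, 1.55 against -1.21 with MRL/MpJ urine). No count in these lists is set against chance, since no test was possible.

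The signal that is known to induce the set was measured too. Ifng, which encodes interferon-gamma, had 444 with lpr urine and 360 with MRL/MpJ urine, against 56.3 with PBS, differences of 4.04 and 3.54. Its receptor chains were lower: Ifngr1 had 747 with lpr urine and 941 with MRL/MpJ urine, against 7637 with PBS (-2.30 and -2.16), and Ifngr2 differed by -1.39 and -1.31. Irf1, a factor that acts on class I promoters after interferon-gamma, had 1117 with lpr urine and 1228 with MRL/MpJ urine, against 7301 with PBS (-1.65 and -1.71), while its other probe differed by only -0.03 and -0.30. Over the 10 genes of this signalling list, 1 was 2-fold higher and 3 were lower with each urine, with medians of -0.53 and -0.57. The shares of all genes were 18.5% higher and 12.0% lower with lpr urine, and 16.9% and 11.1% with MRL/MpJ urine. Ligand and receptor readings thus lay on opposite sides of PBS.

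Among interferon-gamma-induced genes outside the class I set, 3 of 17 were 2-fold higher and 6 lower with lpr urine, and 4 of 16 higher and 6 lower with MRL/MpJ urine (medians of -0.48 and -0.56, below 0 in all 6 settings). Of all genes, 18.5% were higher and 12.0% lower with lpr urine, and 16.9% and 11.1% with MRL/MpJ urine. Ciita is in this list as well as in that of class II. The lower genes included the immunity-related GTPases Irgm2 (-1.70 and -1.66), Igtp (-1.66 and -1.56) and Ifi47 (-1.65 and -1.73). Genes stimulated by type I interferon ran the other way on this scale. With lpr urine 10 of 22 were 2-fold higher, and with MRL/MpJ urine 9 of 22, and 0 were lower. Their medians were 0.98 and 0.96, though 5 genes with lpr urine and 6 with MRL/MpJ urine were below 0. With spike-in scaling, 3 were higher and 5 lower with each urine, and the medians were -0.02 and 0.05. Of all probes, 4.95% were then higher and 46.8% lower with lpr urine, and 4.94% and 43.6% with MRL/MpJ urine. Isg15, a ubiquitin-like protein, had 3636 with lpr urine and 4960 with MRL/MpJ urine, against 552 with PBS (3.78 and 4.03). Factors that act on class I promoters included 0 higher and 1 lower of 19 in each comparison, with medians of -0.21 and -0.30, below 0 in all 6 settings. Rfx5, part of the RFX complex that works with Nlrc5, had 12.6 with lpr urine and 15.1 with MRL/MpJ urine, against 46.3 with PBS (-0.82 and -0.75), while its other probe differed by 0.10 and -0.20. Rela and Nfkb1, subunits of NF-kappa B, differed by -0.93 and -0.86 with lpr urine and by -0.82 and -0.87 with MRL/MpJ urine at their best measured probes, though a further Nfkb1 probe read 0.07 and 0.14.

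**Figure D5:**
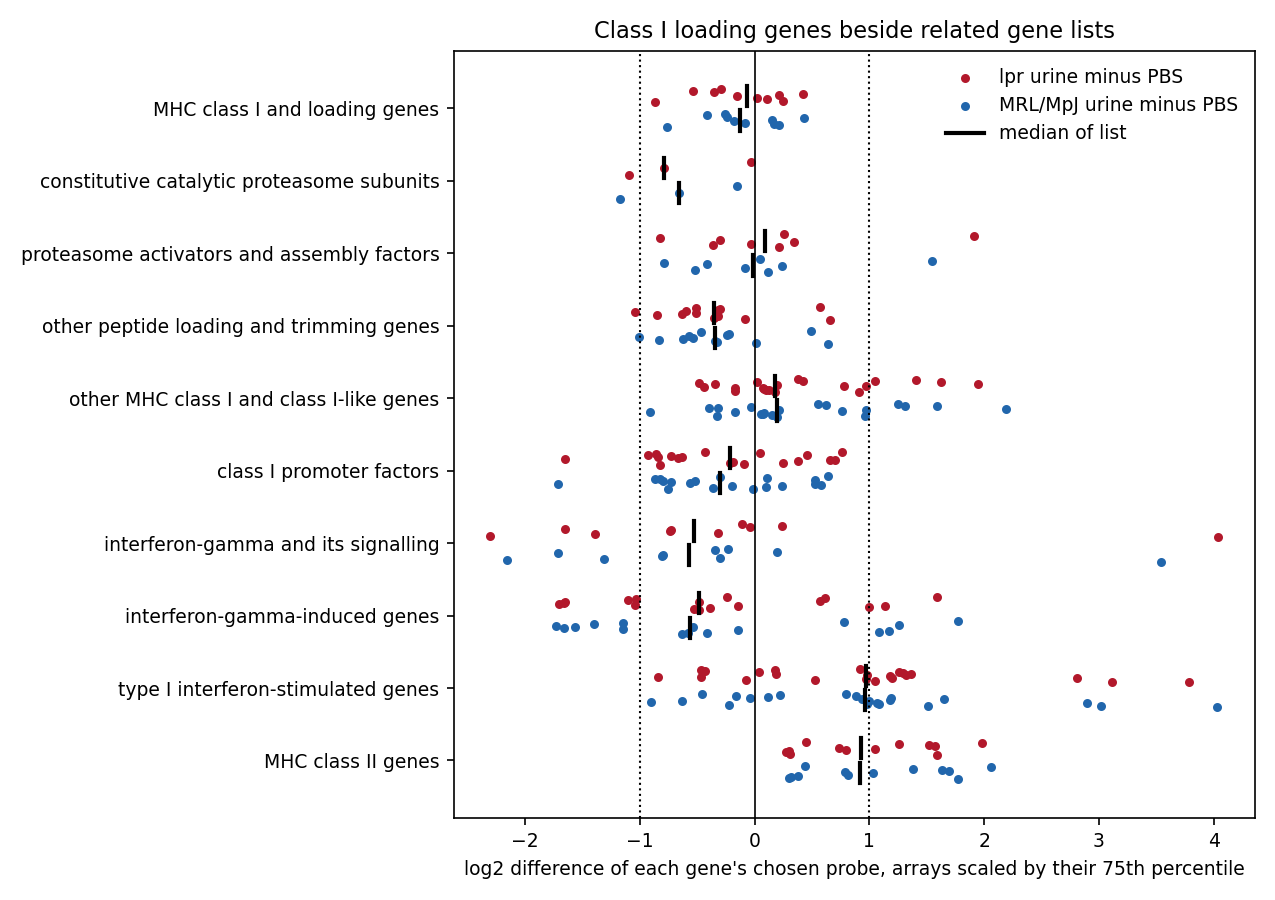
Log2 difference from PBS of every measured gene in the class I members and 9 related lists, with lpr urine and MRL/MpJ urine (1 array each); points are genes and bars are list medians. Class II genes and type I interferon-stimulated genes have medians between 0.92 and 0.98, the members between -0.13 and -0.07, and interferon-gamma-induced genes between -0.56 and -0.48.

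Receptors that read class I, with inhibitory receptors of myeloid cells listed beside them, gave 1 higher and 1 lower of 11 measured with each urine, and medians of 0.01, whose sign changed with the scaling. The shares of all genes were 18.5% higher and 12.0% lower with lpr urine, and 16.9% and 11.1% with MRL/MpJ urine. The higher one, Klra1, an NK cell receptor for class I, had 582 with lpr urine and 619 with MRL/MpJ urine, against 379 with PBS (1.68 and 1.57). The lower one, Lilrb4a, an inhibitory receptor of myeloid cells, had 1266 with lpr urine and 1355 with MRL/MpJ urine, against 11480 with PBS (-2.12 and -2.22). Markers of spleen cell types were present on every array, and several summed levels were higher with urine on this scale. With spike-in scaling the medians of the marker differences from PBS were -0.01 (lpr urine) and 0.16 (MRL/MpJ urine) for B cells, -0.87 and -0.89 for T cells, -0.02 and 0.08 for NK cells, -0.05 and 0.07 for monocytes and macrophages, and -0.21 and -0.18 for neutrophils. Summed levels relative to the array's 75th percentile were 409 (lpr urine) and 434 (MRL/MpJ urine) against 220 (PBS) for all 7 B cell markers, and 202 and 193 against 221 for 7 T cell markers. They were 450 and 430 against 252 for 5 neutrophil markers, 83.2 and 94.2 against 55.9 for 6 monocyte and macrophage markers, and 39.3 and 37.2 against 18.9 for 5 NK cell markers. Without Nkg7, the 4 other NK cell markers summed to 10.6 and 11.1 against 14.8. The dendritic cell sums were 168 and 181 against 122, of which Siglech alone made 164 and 176 against 117, and the 5 other markers made 4.62 and 4.97 against 4.83. Plasma cell sums were 131 and 134 against 71.1, of which Jchain made 94.1 and 95.2 against 40.9, and the 4 other markers 36.9 and 38.4 against 30.3. Those of erythroid cells were 201 and 186 against 154, of which Hba-a1 alone made 199 and 184 against 153. Platelet and stromal sums stayed between 1.09 and 2.14. The dendritic cell marker Xcr1 and the endothelial marker Cdh5 were not well above background on any array. The part of these marker values in the class I readings was not tested.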

How the data were processed

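RNA of cultured spleen cells was measured on 3 one-colour (Cy3) Agilent arrays, 1 per condition, on 1 slide and from 1 scan, per the file headers. The authors' deposited files give intensity in arbitrary units, read by the authors with Agilent Feature Extraction 12.0.3.1, per the file headers and the submitters' processing notes. Per the file headers, the processed signal had background subtracted and was detrended over the array, and a surrogate stands in for low values; no step put the arrays on a common scale. Probe positions are mm9, per the file headers.

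Control and outlier spots were left out, spots of a probe were averaged, and log2 signal was centred on each array's 75th percentile. A probe counted as higher or lower at 2-fold or more, if well above background on both arrays; nothing was tested. A gene in a list was read from its probe above background on most arrays, then the brightest. The other genes named were, per list, the up to 4 with the largest difference against PBS among those measured on all arrays, plus Irf1, Ifng, Ciita, Rfx5, Psmb5, Psmb6 and Psmb7, and 1 gene that is not reported here; H2-L, H2-T23, Brd2 and the cell type markers Nkg7, Siglech, Xcr1 and Cdh5 fall outside that rule and were named after their values were seen. The members and lists were chosen with earlier results of these data known. The alternatives were median, spike-in, measured-probe percentile and quantile scaling, normexp (offset 50), no filter on dim probes, 1.5-fold, and averaging of each gene's probes. Their use on list medians and gene pairs was added after seeing the data. The calculations were checked on simulated data. Sequences came from the array files and, for promoters, RefSeq (GRCm38.p6); motif matches were exact. Tools were Python 3.11.15, numpy 2.4.6, pandas 2.3.3, matplotlib 3.10.9, R 4.3.3 and limma 3.58.1. With 1 array per condition, the number of arrays limits the precision of every difference.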

Additional observations from a re-analysis of the deposited data

How the results depend on the processing

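Every comparison with PBS rests on the same single PBS array, and no array could be left out. Depth is not at issue on arrays; signal over background limits the second Tap2 and Psmb9 probes. Median scaling gave 3 member probes 2-fold lower with lpr urine and 2 with MRL/MpJ urine (23.6% and 22.5% of all probes), and medians of -0.39 in both. Spike-in scaling gave 8 lower with lpr urine and 7 with MRL/MpJ urine (46.8% and 43.6% of all probes), 0 higher with lpr urine (4.95% of all probes), and medians of -0.99 and -0.93; lpr against MRL/MpJ urine then had a median of -0.11. The 75th percentile over measured probes moved the medians to 0.13 (lpr urine) and 0.10 (MRL/MpJ urine). Quantile normalization moved them to -0.21 and -0.22, with 2 lower with lpr urine (14.6% of all probes). Normexp moved them to -0.23 and -0.10, with 0 lower with MRL/MpJ urine (7.24% of all probes), and to -0.08 for lpr against MRL/MpJ urine. It also reversed the second Psmb9 probe, to 0.12 with lpr urine and 0.02 with MRL/MpJ urine. The offset of 50 that normexp adds is larger than that probe's signal on each array, and the cause of the reversal was not tested. At 1.5-fold, 2 probes were higher and 3 lower in each comparison with PBS. Without the filter on dim probes no count or median moved. With each gene's probes averaged, 1 of 10 members, B2m, was 2-fold higher in each comparison with PBS. Its average takes in the cDNA clone's probe (1.77 with lpr urine, 1.93 with MRL/MpJ urine), beside 0.42 and 0.43 at the mRNA probe. The share of all genes under this averaging is not given. No paired analysis was possible because each condition has 1 array.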
